A study of Mus musculus with 8 samples.

Results

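The small leucine-rich proteoglycans are a family of secreted matrix proteins, and 8 of them were followed here by their gene symbols: *Dcn* (decorin), *Lum* (lumican), *Bgn* (biglycan), *Fmod* (fibromodulin), *Ogn* (osteoglycin), *Prelp* (prolargin), *Aspn* (asporin) and *Podn* (podocan). These are 8 of the 31053 genes in the count tables, and all 8 symbols were found. The genes were measured by single-cell RNA sequencing of 3′ ends in 8 tumours of B16F10, a mouse melanoma cell line, each collected at about 300 mm3. In 4 tumours the host mouse was *Atf4* WT/WT and in the other 4 it was *Atf4* Δ/Δ, and each tumour gave 1 library. ATF4 is the transcription factor of the integrated stress response. According to the study's methods both host groups carried Rosa26::CreERT2, a tamoxifen-dependent recombinase active in most tissues, and both received tamoxifen, so that the deletion of *Atf4* was aimed at the whole host and not only at fibroblasts, while the implanted melanoma cells kept the gene. The mice were of C57BL/6 background. The labels give an age of 12 weeks for all mice, where the methods give 9 to 10 weeks, and both sexes in each group. The question put to these genes is which cells of the tumour carry them, and whether their level in cancer-associated fibroblasts (CAFs) differs between hosts with and without *Atf4*.

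The members are built around a curved stack of leucine-rich repeats, and several carry chondroitin, dermatan or keratan sulfate chains. They sit on collagen fibrils, where they set fibril diameter and spacing, and several bind growth factors such as TGF-β and receptors at the cell surface. In solid tumours and in skin they are known as products of fibroblasts, and decorin is a long-used fibroblast marker.

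The genes lie in a few family clusters (GRCm38, GENCODE vM21 annotation, whole gene spans). *Dcn* (chr10:97479609-97518143, plus strand) and *Lum* (chr10:97565128-97572703, plus strand) are neighbours, 46984 bases apart, and *Kera* and *Epyc* follow them. *Aspn* (chr13:49544443-49567565, plus strand) and *Ogn* (chr13:49608046-49624501, plus strand) stand in a row with *Ecm2* before them and *Omd* between them, and *Aspn* is 14896 bases from *Omd*. *Prelp* (chr1:133910304-133921414, minus strand) lies 115839 bases from *Fmod* (chr1:134037254-134048277, plus strand), with *Optc* on its other side at 2304 bases. No other protein-coding gene lies wholly between these neighbours, but *Cenpp*, on the opposite strand, overlaps *Ecm2*, *Aspn*, *Omd* and *Ogn*. *Bgn* (chrX:73483602-73495933, plus strand) and *Podn* (chr4:108014791-108096445, minus strand) have no family member beside them. Exons of *Aspn* and *Prelp* overlap an exon of an annotated gene on the opposite strand (*Cenpp* and *Gm15851*), and the kit keeps the strand of the RNA. Levels are given as CPM, the UMIs (unique molecular identifiers, 1 for each captured RNA molecule) of a gene in the cells summed, divided by all their UMIs and scaled to 1e6. A UMI marks a molecule by its 3′ end, so no scaling by gene length applies.

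The libraries held 37283598 to 74942137 UMIs in 4231 to 8696 barcodes, and any pair of libraries shared at most 14 barcode sequences. Of 41925 barcodes, 28169 were kept as cells and clustered without the 18 genes of the family. A cluster of 729 cells with *Col3a1*, *Col1a1* and *Col1a2* as its leading genes is called CAF-like. All 14 CAF markers were detected in it. It held 71, 51, 64 and 70 cells in WT/WT tumours 1 to 4 and 125, 97, 10 and 241 cells in Δ/Δ tumours 1 to 4. Δ/Δ tumour 3 therefore stands apart: its 10 CAF-like cells held 40826 UMIs, against 227495 to 1490777 in the other tumours, and some results are also given without it. In the CAF-like cells *Xist* and Y-linked transcripts went against the labelled sex in 4 libraries, all 4 of them WT/WT, and the X-linked gene *Bgn* is among the members. Since the whole WT/WT group is affected, no comparison of genotypes could be made without these libraries. For the same reason the setting with labelled sex as a covariate, given below, cannot adjust for sex. *Atf4* itself, given below, followed the genotype labels. No doublet caller was run, and cells with over 5000 genes had been left out.

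Most UMIs of the family lay in the CAF-like cells. The 8 genes gave 21105 UMIs there, or 5440 CPM, against 5.18 CPM in the 23726 melanoma-like cells and 9 UMIs in all among 896 immune cells. *Bgn* and *Dcn* made up 49.6% and 37.7% of the family's UMIs in CAF-like cells, *Lum* 4.63%, *Aspn* 3.84%, *Ogn* 2.25% and *Prelp* 1.61%. *Podn* and *Fmod* were rare, at 66 and 29 UMIs. CAF-like cells held 1.45% of the UMIs of all kept cells but 97.4% of the *Dcn* UMIs (7951 of 8163, 95% exact binomial interval 97.0% to 97.7%), 97.0% of the *Bgn* UMIs, 96.5% of *Aspn*, 88.6% of *Lum*, 85.9% of *Ogn* and 86.8% of *Podn*. All 29 UMIs of *Fmod* were in CAF-like cells. *Prelp* was the exception, with 35.3% of its 960 UMIs in CAF-like cells (32.3% to 38.4%) and 63.4% in melanoma-like cells. Melanoma-like cells held 96.1% of the UMIs of all kept cells. Such intervals, here and elsewhere, cover counting error only. Over the 8 tumours the *Prelp* share in CAF-like cells was 26.8% ± 23.2% (SD), from 1.05% to 72.0%. The share of *Lum* ran from 35.3% to 93.4% and that of *Ogn* from 33.3% to 96.5%. All 3 were lowest in Δ/Δ tumour 3, with its 10 CAF-like cells.

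The CAF-like cells stood above the next class in the order in all 8 tumours for 6 members, and in 7 of 8 for *Podn*. The order was set by the medians of the same tumours. It left out endothelial-like cells, T or NK cells and dendritic cells, of which only 1, 5 and 5 tumours held 10 or more. For *Bgn* and *Ogn* the next class was a group of 2783 cells without a class name. This group had a median of 1357 UMIs a cell, against 10303 in melanoma-like cells. All 10 melanoma markers were detected in it, at 22828.5 CPM in sum against 16318.8 CPM in melanoma-like cells. For *Dcn* the CAF-like level ran from 941 to 2494 CPM over the 8 tumours, with a median of 1631, and the melanoma-like level from 0.166 to 2.72. For *Bgn* the CAF-like level ran from 2216 to 3498 CPM and the melanoma-like level from 0.226 to 3.50. *Lum* had a median of 186 CPM in CAF-like cells, *Aspn* 172, *Ogn* 99.0, *Prelp* 64.8 and *Podn* 14.4. The order was tested between neighbouring classes with an exact two-sided sign-flip test on log2(CPM + 1) over tumours, for 24 pairs of neighbours with Benjamini-Hochberg adjustment. The step down from CAF-like cells had an adjusted p of 0.03125 for *Dcn*, *Lum*, *Bgn*, *Ogn*, *Prelp* and *Aspn* (higher in 8 of 8 tumours for each, exact p = 0.0078125, the smallest 8 tumours allow), and of 0.046875 for *Podn* (7 of 8 tumours). For *Fmod* the step was not past the threshold (5 of 7 tumours, adjusted exact p = 0.125). Lower in the order 1 pair of neighbours passed: *Ogn* was above the TAM-like level in melanoma-like cells in 7 of 7 tumours (adjusted exact p = 0.046875) at a median of only 0.331 CPM. The TAM-like sums were too shallow to register a level that low, so this step cannot tell the classes apart. The melanoma-like level of *Bgn* was above that of the unnamed immune cells in 7 of 8 tumours (exact p = 0.0234, adjusted exact p = 0.0625). Summed over tumours, these immune cells held 1 UMI of *Bgn* (0.993 CPM, exact Poisson interval 0.0252 to 5.54), against 1.17 CPM in melanoma-like cells. That step cannot tell the classes apart either. With 7 tumours the smallest exact p is 0.015625, and leaving out any tumour but WT/WT 2 left no step past the threshold of the adjusted test, while the step from CAF-like cells kept an unadjusted exact p under 0.05 for 7 members each time. TAM is a tumour-associated macrophage; the 217 TAM-like cells held no UMI of any member, where 3 UMIs would have been 5.38 CPM.

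**Figure D1:**
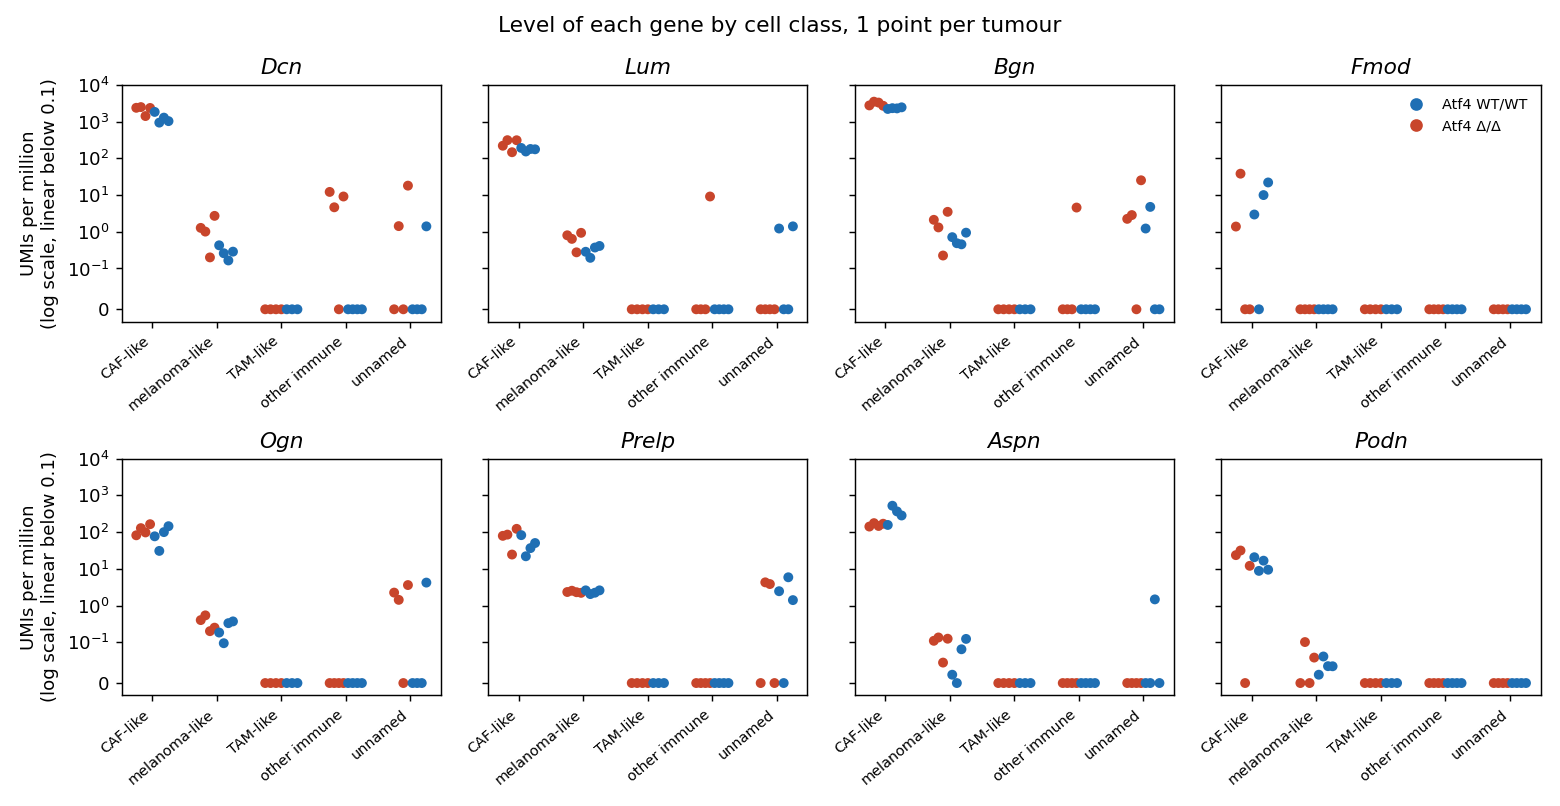
Level of each member by cell class, with 1 point per tumour with at least 10 cells of that class, in CPM on a log axis that is linear below 0.1. For the 6 genes other than *Fmod* and *Podn* every CAF-like point lies above every melanoma-like point, and the *Prelp* melanoma-like points lie between 2.05 and 2.59.

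The endothelial-like cluster was small, with 35 cells, and held 12 UMIs of *Bgn* (126 CPM, exact Poisson interval 64.9 to 219.5), 8 of *Aspn* (83.8 CPM, 36.2 to 165.1) and 1 of *Dcn*. The UMIs of *Bgn* lay in 4 of the 35 cells and those of *Aspn* in 4, and the intervals do not cover such clumping. Only 1 tumour had 10 or more of these cells, so no spread over tumours can be given. All 12 perivascular markers were also detected in this cluster, at 1382 CPM in sum against 1261 CPM in CAF-like cells. Whether its *Bgn* and *Aspn* UMIs came from endothelial cells was not tested. In 501 immune cells without a type name there were 4 UMIs of *Dcn*, 2 of *Lum* and 1 of *Bgn*.

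*Prelp* was the member with the highest summed level in melanoma-like cells, at 2.37 CPM, followed by *Bgn* at 1.17 and *Dcn* at 0.778 CPM. Its level there was 2.59, 2.05, 2.24 and 2.59 CPM in WT/WT tumours 1 to 4 and 2.34, 2.53, 2.31 and 2.22 CPM in Δ/Δ tumours 1 to 4, so that the groups overlapped and all 8 tumours were close together. *Dcn* in the same cells ran from 0.166 to 2.72 CPM. It was at 0.428, 0.260, 0.166 and 0.288 in WT/WT tumours 1 to 4 and at 1.28, 1.01, 0.201 and 2.72 in Δ/Δ tumours 1 to 4. The CAF-like share of a tumour's UMIs was 0.671%, 0.724%, 1.18% and 1.24% in WT/WT tumours 1 to 4 and 2.50%, 1.42%, 0.101% and 4.37% in Δ/Δ tumours 1 to 4. The Δ/Δ tumours stood in the same order by both values, and the WT/WT tumours did not: WT/WT tumour 1 had the lowest share of that group and its highest *Dcn*. UMIs of *Dcn* and *Prelp* also stood in another ratio in the 2 classes. For each UMI of *Dcn* there were 0.0172 to 0.0520 UMIs of *Prelp* in the CAF-like sums, while the melanoma-like sums held 0.816 to 13.5, with no overlap between the 8 tumours. The ratio of *Bgn* to *Dcn* overlapped, at 1.14 to 2.48 in the CAF-like sums against 1.13 to 3.29 in the melanoma-like ones. The part of free RNA from CAFs in the melanoma-like values was not tested. At 2000 UMIs a cell, 0.504% of melanoma-like cells had a UMI of *Prelp* and 0.140% of *Dcn*.

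**Figure D2:**
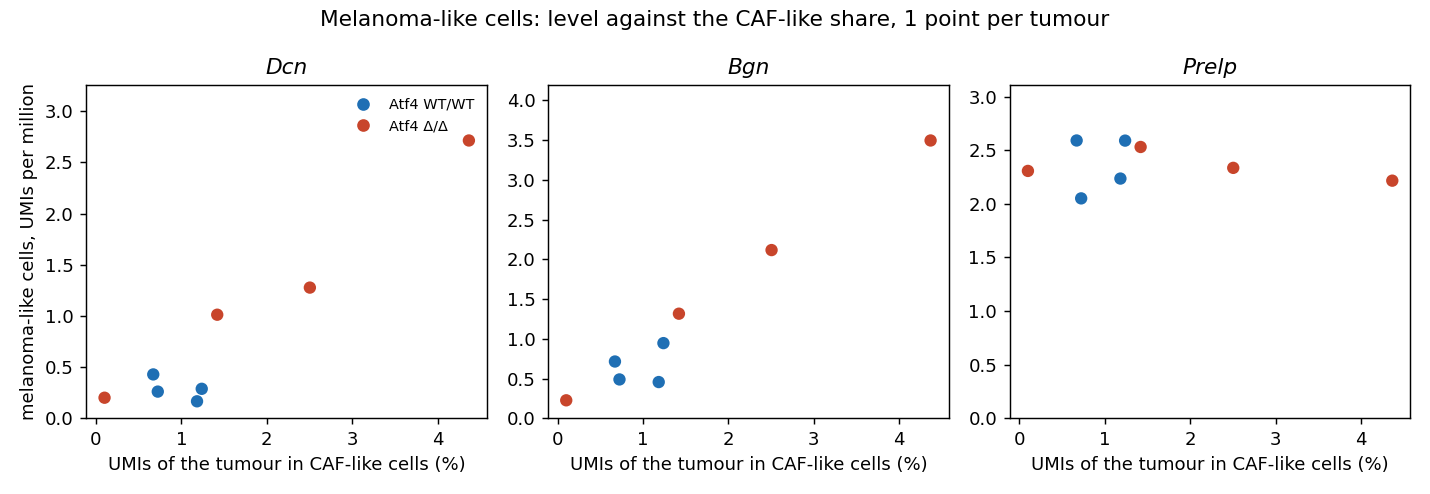
Level of *Dcn*, *Bgn* and *Prelp* in melanoma-like cells (CPM) against the share of the tumour's UMIs that lay in CAF-like cells (%), with 1 point per tumour. *Dcn* and *Bgn* are highest, at 2.72 and 3.50, in the tumour with 4.37% CAF-like UMIs, while *Prelp* stays between 2.05 and 2.59 throughout.

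Between genotypes, no member passed the test in melanoma-like cells or could be tested in TAM-like cells. By edgeR's quasi-likelihood test on the melanoma-like sums, 4 of 12557 genes were called (0.0319%), and 11.3% had an unadjusted p under 0.05. Of the 4 members tested, *Prelp* had a log2 fold change of -0.05 ± 0.14 (SE, Δ/Δ over WT/WT, unadjusted p = 0.703, adjusted p = 0.915, edgeR). *Dcn*, *Lum* and *Bgn* had 2.04 ± 0.63, 1.04 ± 0.40 and 1.401 ± 0.596. Their unadjusted p was 0.00748, 0.0232 and 0.0376, and their adjusted p 0.312, 0.382 and 0.413 (edgeR). In TAM-like cells 0 of 774 genes were called by edgeR (0%), 89 (11.5%) had an unadjusted p under 0.05, and no member was among the genes tested.

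In CAF-like cells the targeted gene separated the groups: *Atf4* was at 278, 299, 323 and 290 CPM in WT/WT tumours 1 to 4 and at 151, 104, 171 and 95.3 CPM in Δ/Δ tumours 1 to 4, without overlap (log2 fold change -1.28 ± 0.19, adjusted p = 0.0373, edgeR). The Δ/Δ CAF-like sums thus still held *Atf4* transcript, at 130.4 ± 36.9 CPM against 297 ± 19.3 CPM (SD, n = 4 each). These sums also held melanoma markers, given below, and the melanoma cells kept the gene. Whether the remaining transcript came from host cells was not tested. The study reports that *Atf4* mRNA was absent from the host clusters of Δ/Δ mice. EdgeR called no gene lower in Δ/Δ, and so not *Atf4*, with the replicate number as a block, labelled sex as a covariate, a mitochondrial limit of 15% or cells taken by a collagen gate (at least 10 UMIs of *Col1a1*, *Col1a2* and *Col3a1* and none of *Ptprc*) in place of clusters, nor with any 1 WT/WT tumour, Δ/Δ tumour 2 or Δ/Δ tumour 4 left out. No member passed the threshold. Of the members tested, 5 had a log2 fold change above 0 and *Aspn* one below 0, and *Bgn* was the member whose groups did not overlap. Over all genes, edgeR called 2 of 4648 (0.043%), *Cck* higher in Δ/Δ (0.0215%) and *Atf4* lower (0.0215%). *Cck* was named after its values were seen. Of the 8 members, 6 passed the filter on low counts, and *Fmod* and *Podn* did not. Of these 6, 0 were called, while 5 had an unadjusted p under 0.05, 4 of them higher and 1 lower in Δ/Δ; the share over all genes tested was 6.48%, with 3.72% higher and 2.75% lower. DESeq2 likewise called 0 of the 8 members, where it called 0.013% of all genes and 0.00648% as higher in Δ/Δ, and gave 5 members an unadjusted p under 0.05, as it did 187 of 15443 genes.

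*Dcn*, which encodes decorin, was at 1840.3, 941, 1287 and 1034 CPM in WT/WT tumours 1 to 4 and at 2383, 2494, 1421 and 2359.8 CPM in Δ/Δ tumours 1 to 4. Δ/Δ tumours 1, 2 and 4 were above every WT/WT tumour, and Δ/Δ tumour 3, with its 10 cells, fell within the WT/WT range. The means were 1275 ± 404 and 2164 ± 499 (SD, n = 4 each), the log2 fold change was 0.80 ± 0.23 (SE), and the adjusted p was 0.533 (edgeR). Without Δ/Δ tumour 3 the log2 fold change was 0.96, with an adjusted p of 0.176 (edgeR), and the other 3 ran from 2359.8 to 2494. *Bgn*, which encodes biglycan, its nearest relative in the family, was at 2216, 2329.7, 2296 and 2455 CPM in WT/WT and 2768, 3498, 3307 and 2702 CPM in Δ/Δ, so that every Δ/Δ tumour was above every WT/WT tumour. Such a gap was found in 1.66% of the genes tested, and the opposite one in 2.32%. The difference was small against the level, with a log2 fold change of 0.40 ± 0.12 and an adjusted p of 0.605 (edgeR). Without perivascular-like cells the *Bgn* groups overlapped, at up to 2720 CPM in WT/WT and from 2701 CPM in Δ/Δ. They also overlapped in the largest subcluster alone, at up to 3466 and from 3377 CPM. They stayed apart with the collagen gate and without cells rich in melanoma markers. Of these settings only the gate kept Δ/Δ tumour 3.

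*Aspn*, which encodes asporin, a relative of decorin that competes with it for collagen, was at 157, 523, 367 and 284 CPM in WT/WT tumours 1 to 4 and at 142, 176, 147 and 169 CPM in Δ/Δ tumours 1 to 4. The Δ/Δ values were close together, 158 ± 16.5 (SD, n = 4), and the WT/WT values spread widely, 332 ± 154, with WT/WT tumour 1 inside the Δ/Δ range. The log2 fold change was -0.999 ± 0.288, with an adjusted p of 0.533 (edgeR). The perivascular marker *Rgs5* was at 1336 CPM in WT/WT tumour 2, the tumour with the highest *Aspn*, and at 0 to 321 CPM in the others. Without perivascular-like cells, which also leaves out Δ/Δ tumour 3 for having under 10 cells, the log2 fold change of *Aspn* was -0.94 (adjusted p = 0.393, edgeR).

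*Lum*, which encodes the keratan sulfate proteoglycan lumican, was at 192, 154, 179.99 and 176 CPM in WT/WT tumours 1 to 4 and at 221, 313, 147 and 311 CPM in Δ/Δ tumours 1 to 4. Its groups overlapped through Δ/Δ tumour 3 alone, and the log2 fold change was 0.64 ± 0.20 (adjusted p = 0.624, edgeR). *Prelp*, whose product anchors basement membranes to collagen, was at 82.7, 21.98, 36.7 and 50.4 CPM in WT/WT and 79.2, 85.5, 24.5 and 123 CPM in Δ/Δ, with overlapping groups and a log2 fold change of 0.96 ± 0.33 (adjusted p = 0.653, edgeR). *Ogn*, known first from bone, was at 76.8, 30.8, 99.99 and 145 CPM in WT/WT and 81.9, 128, 98.0 and 164 CPM in Δ/Δ. The *Ogn* groups lay over each other (log2 fold change 0.50 ± 0.33, adjusted p = 0.90, edgeR). *Podn* ran from 8.79 to 20.7 CPM in WT/WT and from 0 to 31.5 CPM in Δ/Δ. *Fmod* ran from 0 to 22.1 CPM in WT/WT; in Δ/Δ it was at 38.3 CPM in tumour 2 and at or under 1.39 CPM in the others, and the tumour 2 value came from 17 UMIs in 4 cells, 9 of them in 1 cell.

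**Figure D3:**
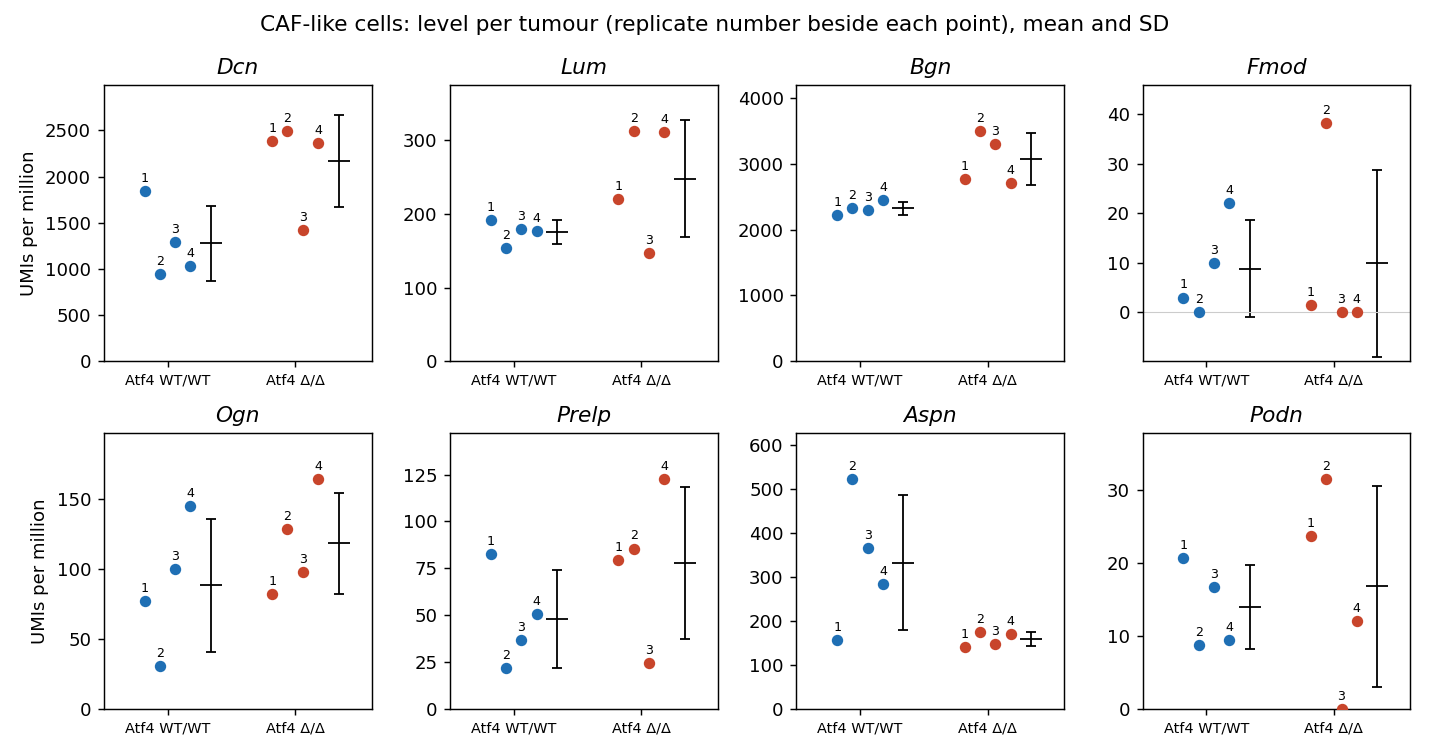
Level of each member in CAF-like cells of each tumour (CPM), by host genotype, with the replicate number beside each point and the mean and SD of the 4 tumours. The *Bgn* groups do not overlap (up to 2455 against 2702 and above), the *Dcn* and *Lum* groups overlap through Δ/Δ tumour 3, and the *Aspn* values are close together only in Δ/Δ.

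Markers of other cells were present in the CAF-like sums. The marker list of melanoma cells summed to 2136.5 to 5533 CPM in WT/WT and 1127 to 4429 CPM in Δ/Δ CAF-like cells, with all 10 markers detected, and that of perivascular cells to 1039.8 to 5336 and 279 to 5021 CPM. The 11 immune markers summed to 3.33 to 79.8 CPM in the 8 tumours. The 10 TAM markers, with *Adgre1* at 0, summed to 109.99 to 419 CPM in WT/WT and 49.0 to 304 in Δ/Δ, and the 10 dendritic cell markers, 6 of them at 0, to 101 to 213 and 164 to 197 CPM. For the 10 endothelial markers, with *Cdh5*, *Kdr* and *Tie1* at 0, the sums were 103 to 246 and 72.0 to 318 CPM. The 4 adipocyte markers, with *Adipoq* and *Cidec* at 0, summed to 53.3 to 633 CPM in WT/WT and 33.8 to 101 CPM in Δ/Δ. *Fabp4*, on the adipocyte list, was also a leading gene of the perivascular-like subcluster and of the endothelial-like cluster. The part of all these markers in the values was not tested beyond the following. In the 581 CAF-like cells left without those rich in melanoma markers, which leaves out Δ/Δ tumour 3, edgeR called 15 of 4044 genes and no member, and the adjusted p was 0.0516 for *Dcn*, 0.0724 for *Prelp*, 0.122 for *Lum*, 0.219 for *Aspn* and 0.307 for *Bgn*. With no filter on low counts, edgeR called 100 of 15446 genes (0.647%, with 0.401% higher in Δ/Δ), among them *Aspn* (adjusted p = 0.00210), *Prelp* (0.0273) and *Dcn* (0.0347). In sums like these, fewer cells with a transcript and fewer transcripts per cell cannot be told apart, so cells were also counted.

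**Figure D4:**
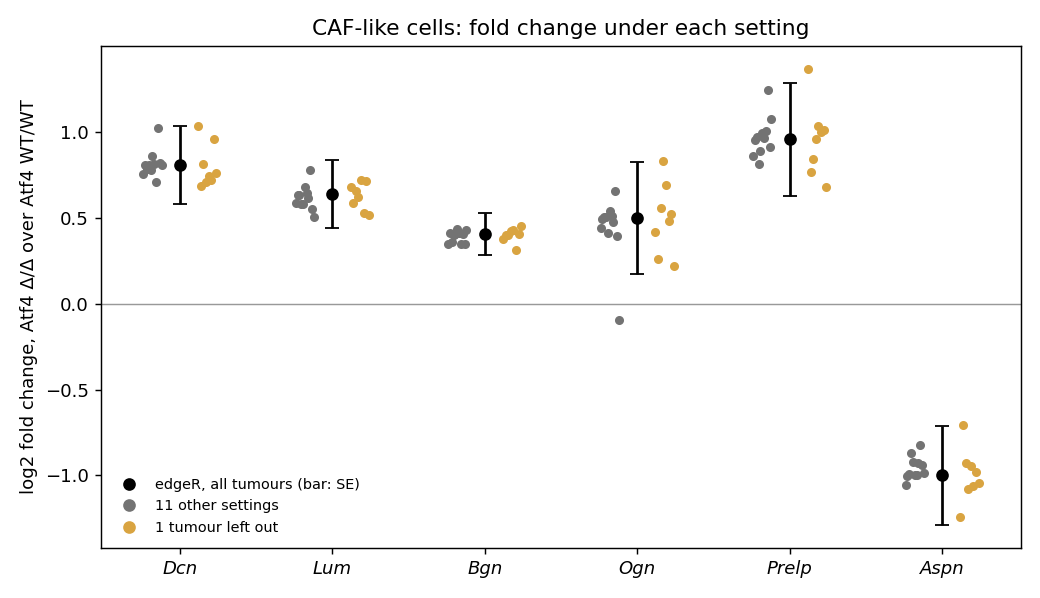
Log2 fold change (Δ/Δ over WT/WT) of the 6 members tested in CAF-like cells, for the edgeR result on all tumours with its SE, for the other settings and with each tumour left out. *Aspn* is below 0 and *Dcn*, *Lum*, *Bgn* and *Prelp* above 0 in every setting, and *Ogn* crosses 0 in the largest subcluster alone.

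Counted by cell, *Bgn* and *Dcn* were the most widely detected members in CAF-like cells. In the 649 CAF-like cells thinned to 2000 UMIs each (80 shallower cells left out), 95.2% had a UMI of *Bgn* and 83.2% of *Dcn*. For *Lum* the share was 33.7%, for *Aspn* 27.3%, for *Ogn* 17.7%, for *Prelp* 14.8%, for *Podn* 2.47% and for *Fmod* 0.924%. Unthinned, at a median of 4610 UMIs, the shares were 97.7% for *Bgn*, 87.5% for *Dcn*, 51.2% for *Lum* and 44.7% for *Aspn*. At the same 2000 UMIs the shares of melanoma-like cells ran from 0% for *Fmod* (0 of 23588 cells, which by counting error alone allows up to 0.0127% of cells with a UMI) to 0.504% for *Prelp*, and unthinned, at a median of 10303 UMIs, from 0% to 2.46%.

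Over tumours, the share of CAF-like cells with *Dcn* was 80.0%, 46.5%, 84.6% and 76.4% in WT/WT tumours 1 to 4 and 88.9%, 90.9% and 86.2% in Δ/Δ tumours 1, 2 and 4. All 3 Δ/Δ values were above all 4 WT/WT values, and WT/WT tumour 2 was far below the rest. Δ/Δ tumour 3 had 9 cells deep enough, under the minimum of 10, and was left out of this test, with shares of 88.9% for *Dcn* and 33.3% for *Aspn*. The difference was 16.8 percentage points (exact permutation test, p = 0.0857, adjusted p = 0.343 over the 8 members). For *Aspn* the share was 26.7%, 65.1%, 34.6% and 34.5% in WT/WT and 19.7%, 23.9% and 21.8% in Δ/Δ, a difference of -18.5 points (exact permutation test, p = 0.0571, adjusted p = 0.343), again without overlap between these 7 tumours. With 4 tumours against 3 the smallest p this test allows is 0.0286. Without WT/WT tumour 2 the differences were 8.35 points for *Dcn* and -10.2 points for *Aspn*, and without perivascular-like cells they were 10.4 and -17.6 points. The other 6 members had an exact permutation p of 0.171 or above. Thinned to 1000 UMIs, which kept every tumour, the *Dcn* shares overlapped, at 39.2% to 63.9% in WT/WT and 50% to 79.7% in Δ/Δ. Those of *Aspn* did not, at 17.4% to 32.4% and 0% to 14.6%. The exact permutation p was 0.2 for *Dcn* and 0.0286 for *Aspn* (adjusted p = 0.533 and 0.229). How many of all genes had shares without overlap was not counted.

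The CAF-like cells fell into 5 subclusters, which are called here by genes among their leading 10: *Cxcl9*, *Lrrc15* and *Cilp* (282 cells), *Pgf* and *Ndrg1* (186), *Pi16* and *Clec3b* (114), *Dct* and *Pmel* (82) and a perivascular-like cluster with *Rgs5*, *Kcnj8* and *Abcc9* (65). The *Dct* and *Pmel* cluster is led by melanoma genes, has a median of 12420 UMIs a cell against 2558 to 5138 in the others, and is given no name. Its 82 cells stayed in the CAF-like totals, shares and tests above, where they held 765 of the 7951 *Dcn* UMIs. Since some tumours had few cells of a cluster, the levels are given as a description, summed over all tumours and as a range over tumours with at least 10 cells, without a test.

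*Dcn* was graded over the subclusters. Summed over tumours it was at 4715 CPM in *Pi16* and *Clec3b* cells (5 tumours, 2711 to 6358), 2789 CPM in *Pgf* and *Ndrg1* cells (6 tumours, 1622 to 3462), 1816 CPM in *Cxcl9* and *Lrrc15* cells (7 tumours, 799.8 to 2381), 799.8 CPM in *Dct* and *Pmel* cells and 152 CPM in perivascular-like cells (3 tumours, 0 to 150.2). The order of the first 3 was the same in each tumour that could be compared: *Pi16* and *Clec3b* cells were above *Pgf* and *Ndrg1* cells in 5 of 5 tumours, and these above *Cxcl9* and *Lrrc15* cells in 6 of 6. *Dcn* was thus 31.1 times higher in its highest cluster than in perivascular-like cells. *Lum* was at 445 CPM in *Pi16* and *Clec3b* cells, at 299.8 CPM in *Pgf* and *Ndrg1* cells and 294 CPM in *Cxcl9* and *Lrrc15* cells, between which the tumours were split 3 to 3, and at 20.2 CPM in perivascular-like cells, where it rested on 4 UMIs.

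*Bgn* kept a high level across the subclusters, including the perivascular-like one. It was at 3518 CPM in *Cxcl9* and *Lrrc15* cells, 3437 in *Pgf* and *Ndrg1* cells, 2619 in *Pi16* and *Clec3b* cells, 2154 in perivascular-like cells and 1020.4 in *Dct* and *Pmel* cells, so that its highest cluster was 1.63 times the perivascular-like one. Between the first 2 the tumours were split 3 to 3. *Aspn* was highest in perivascular-like cells, at 531 CPM (3 tumours, 488 to 570.4), followed by 291 CPM in *Cxcl9* and *Lrrc15* cells (7 tumours, 217 to 761), 267 in *Pi16* and *Clec3b* cells and 94.7 in *Pgf* and *Ndrg1* cells (6 tumours, 39.3 to 162). *Aspn* was higher in *Cxcl9* and *Lrrc15* than in *Pgf* and *Ndrg1* cells of 6 of 6 tumours, and higher in perivascular-like than in *Cxcl9* and *Lrrc15* cells of 2 of 3. It was higher in *Pi16* and *Clec3b* than in *Cxcl9* and *Lrrc15* cells in 3 of 5 tumours, against the order of the sums. In perivascular-like cells *Bgn* and *Aspn* made up 75.1% and 18.5% of the family's UMIs and *Dcn* 5.29%; in *Pi16* and *Clec3b* cells *Dcn* made up 53.2% and *Bgn* 29.6%.

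*Ogn*, *Prelp* and *Podn* shared a peak in *Pi16* and *Clec3b* cells. *Ogn* was at 439.7 CPM there (5 tumours, 272 to 686), at 131 CPM in *Cxcl9* and *Lrrc15* cells and at 27.3 CPM in *Pgf* and *Ndrg1* cells, and it gave no UMI in perivascular-like cells, which makes the peak at least 29.0-fold higher than a level of 3 UMIs there. *Prelp* was at 309 CPM in *Pi16* and *Clec3b* cells (5 tumours, 168 to 372), 78.7 CPM in *Cxcl9* and *Lrrc15* cells and 31.6 CPM in *Pgf* and *Ndrg1* cells. *Podn* was at 60.6 CPM in the first and at or under 15.3 CPM elsewhere. *Fmod* had 24 of its 29 UMIs in *Cxcl9* and *Lrrc15* cells.

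**Figure D5:**
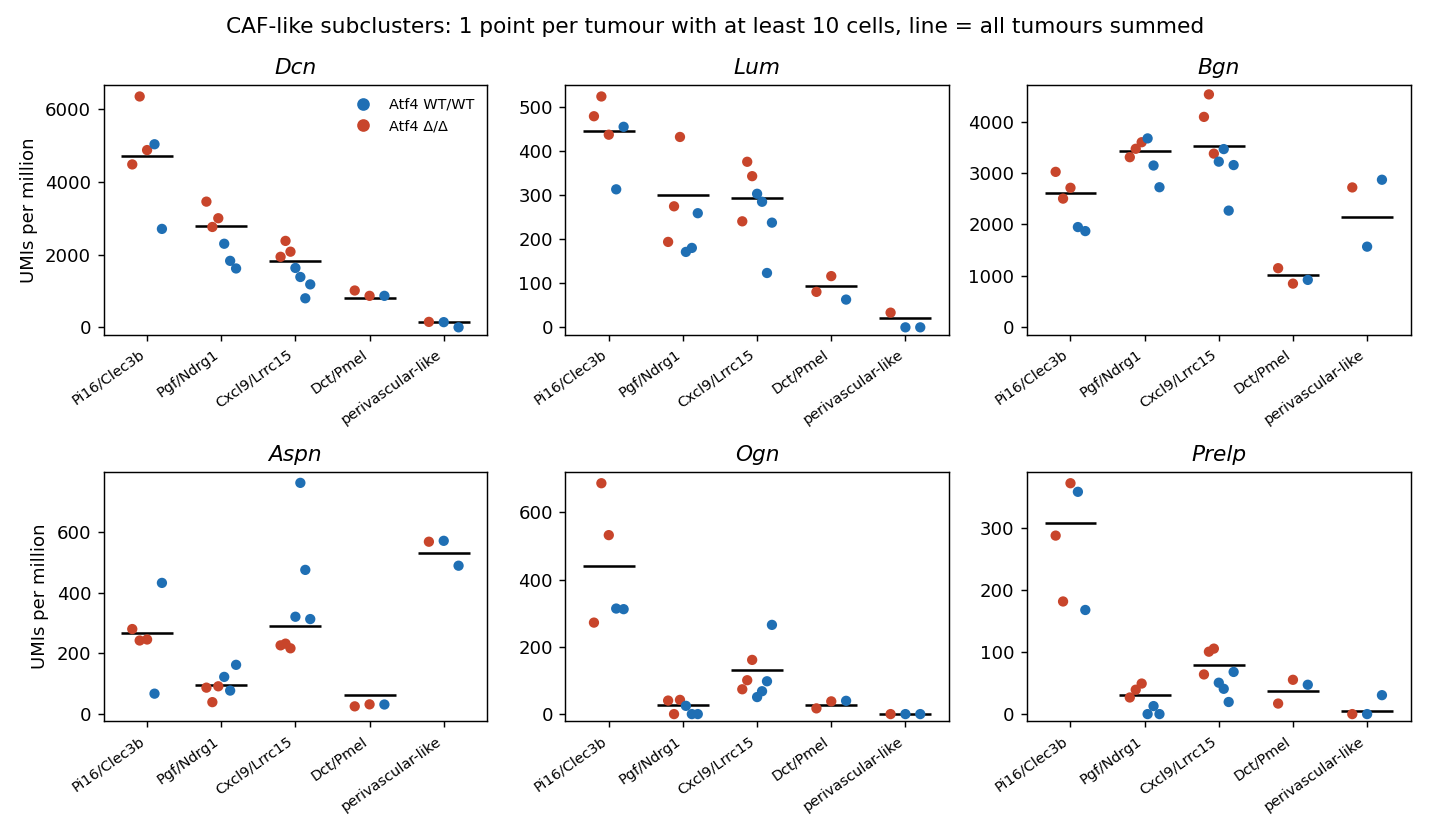
Level of 6 members in the 5 CAF-like subclusters (CPM); each point is a tumour with at least 10 cells of the subcluster, and the line is the sum over all tumours. *Dcn* steps down from 4715 to 152, *Ogn* and *Prelp* peak in *Pi16* and *Clec3b* cells, and *Aspn* is highest, at 531, in perivascular-like cells.

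Cell by cell the same split was seen at 2000 UMIs. In *Pi16* and *Clec3b* cells 105 of 106 had a UMI of *Dcn*, 55.7% of *Lum*, 49.1% of *Ogn* and 48.1% of *Prelp*, and the median cell had 4 of the 8 members. In the 39 perivascular-like cells deep enough, 94.9% had *Bgn*, 61.5% *Aspn* and 12.8% *Dcn*, none had *Ogn*, *Prelp* or *Podn*, and 53.8% had *Aspn* without *Dcn*. The share with *Aspn* and no *Dcn* was 5.90% in *Cxcl9* and *Lrrc15* cells and 0% in *Pi16* and *Clec3b* cells. Only 8 of 649 CAF-like cells had no member at this depth, and all 8 were in the *Dct* and *Pmel* cluster.

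The tumours held the subclusters in different shares, whose part in the genotype values was tested only by the settings without perivascular-like cells and in the largest subcluster. Perivascular-like cells were 5.63%, 45.1%, 3.13% and 17.1% of the CAF-like cells in WT/WT tumours 1 to 4 and 2.40%, 0%, 30% and 7.47% in Δ/Δ tumours 1 to 4. *Pi16* and *Clec3b* cells were 21.1%, 3.92%, 15.6% and 5.71% in WT/WT and 21.6%, 15.5%, 0% and 17.0% in Δ/Δ. The zero and the 30% of Δ/Δ tumour 3 rest on its 10 cells. Inside the *Cxcl9* and *Lrrc15* subcluster, the largest, *Aspn* was at 313 to 761 CPM in 4 WT/WT tumours and 217 to 232 CPM in Δ/Δ tumours 1, 2 and 4, and *Dcn* at 799.8 to 1636 and 1943 to 2381 CPM. The log2 fold changes in this subcluster alone, a setting chosen after seeing the data, were -0.98 for *Aspn* and 0.80 for *Dcn* (adjusted p = 0.215 and 0.137, edgeR), where 6 of 2633 genes and no member were called. In *Pgf* and *Ndrg1* cells *Dcn* was at 1622 to 2302 CPM in 3 WT/WT tumours and 2764 to 3462 CPM in 3 Δ/Δ tumours. How many of all genes had such a gap within a subcluster was not counted, and fewer tumours make a gap more likely by chance. *Ogn* was at 50.6 to 265 CPM in WT/WT and 73.8 to 161 CPM in Δ/Δ *Cxcl9* and *Lrrc15* cells.

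Likeness to other genes was measured as Pearson's r of log2(CPM + 10) over 24 sums of a tumour and a subcluster, among 1548 genes with a mean of at least 100 CPM. The sums share tumours, libraries and depth, so r is given as a description. *Dcn* was most like *Ctsh* (0.943), *Aebp1* (0.942) and its neighbour *Lum* (0.913), and *Lum* most like *Slc39a14* (0.943), *Fbln2* (0.941) and *Aebp1* (0.935). *Bgn* was most like the fibrillar collagen gene *Col5a3* (0.899), then *Pxdn* (0.838) and *S100a6* (0.786). *Ogn* and *Prelp* shared *Cd34* (0.934 and 0.863) and *Ly6c1* (0.903 and 0.845), with *Dpt* (0.901) next for *Ogn* and *Ogn* itself (0.846) for *Prelp*. *Aspn* was most like *Erp29* (0.820), *Crip1* (0.815) and *Ehd2* (0.808). Among the members, r was 0.201 between *Dcn* and *Bgn*, -0.326 between *Dcn* and *Aspn* and 0.418 between *Bgn* and *Aspn*. *Aspn* and *Ogn*, neighbours on chromosome 13, had an r of 0.161.

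Promoter sequences are shown for 3 genes with unlike patterns over the subclusters: *Bgn*, present in every subcluster, *Aspn*, highest in perivascular-like cells, and *Ogn*, near *Aspn* on the chromosome but without a UMI in those cells. Each is the 250 bases before the transcription start on the gene's strand (RefSeq, GRCm38.p6), and 6 of the 8 members had such an entry. The windows are chrX:73483351-73483600 for *Bgn*, chr13:49544193-49544442 for *Aspn* and chr13:49607765-49608014 for *Ogn*, all on the plus strand. Capitals mark matches to the letters searched on both strands.

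Bgn: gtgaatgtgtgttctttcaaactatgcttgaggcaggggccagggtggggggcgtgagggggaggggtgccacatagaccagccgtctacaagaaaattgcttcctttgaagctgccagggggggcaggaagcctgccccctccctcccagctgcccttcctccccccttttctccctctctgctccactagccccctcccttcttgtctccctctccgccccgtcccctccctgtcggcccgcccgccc

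Aspn: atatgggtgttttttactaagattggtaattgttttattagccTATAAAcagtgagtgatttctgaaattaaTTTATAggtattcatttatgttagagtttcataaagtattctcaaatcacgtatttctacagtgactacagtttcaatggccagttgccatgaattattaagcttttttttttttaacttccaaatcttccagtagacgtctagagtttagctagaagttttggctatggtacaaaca

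Ogn: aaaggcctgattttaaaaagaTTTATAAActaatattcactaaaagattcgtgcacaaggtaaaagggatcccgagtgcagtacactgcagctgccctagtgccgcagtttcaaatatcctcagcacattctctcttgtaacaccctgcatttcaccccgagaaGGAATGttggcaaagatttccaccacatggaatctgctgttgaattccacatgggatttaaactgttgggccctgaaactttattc

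The G and C content was 64.4% for *Bgn*, 30% for *Aspn* and 42% for *Ogn*. The letters searched were TGATGNAA, the core of the C/EBP-ATF response element (in 3.45% of all 32851 promoter windows of this length), TATAAA, the TATA box (12.4%), TGANTCA, the AP-1 site (6.75%) and CATTCC, the TEAD site (12.6%). Positions are counted back from the start. *Aspn* held TATAAA at position -207 and, on the other strand, at -178. *Ogn* held it at -227 on its own strand and at -229 on the other, overlapping each other, and CATTCC at -86 on the other strand. None of the 4 was found in the *Bgn* window, and TGATGNAA was found in none of the 3. A match is a run of letters and not a bound site.

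Genes that act with the family gave no call in CAF-like cells either, where edgeR called 2 of 4648 genes (0.043%) in all. With so low a share, the lack of a call tells nothing particular about these lists. Lists of partners were described by how many of their genes passed the count filter and the test in edgeR, beside a median log2 fold change of -0.01 over all genes tested. Of the 9 fibrillar collagens the members bind, 6 were tested and 0 called, with a median of 0.30; *Col1a1* had the smallest p, at 7937 ± 1067 CPM in WT/WT and 10252 ± 2501 CPM in Δ/Δ (SD, n = 4 each; log2 fold change 0.39 ± 0.17, adjusted p = 0.729), then *Col5a3* (0.28 ± 0.14) and *Col1a2* (0.35 ± 0.21). Of 12 proteases that process or cut the members, 7 were tested and 0 called, with a median of 0.52. The smallest p values were those of *Mmp2*, a gelatinase that cuts decorin (0.84 ± 0.23, adjusted p = 0.505), *Bmp1*, which removes the propeptides of decorin and biglycan (0.52 ± 0.16, adjusted p = 0.565), and *Mmp3* (0.999 ± 0.350, adjusted p = 0.653). Of these 7, 3 had an unadjusted p under 0.05 with a value above 0 and 1, *Adamts4*, named after its value was seen, with a value below 0, against the 3.72% and 2.75% of all genes given above.

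Of 22 growth factor and receptor partners, 13 were tested and 0 called (median -0.08); 3 had an unadjusted p under 0.05 and a log2 fold change below 0, namely *Wisp1* (-0.52 ± 0.21), *Tgfb1*, a ligand that decorin binds (-0.51 ± 0.23), and *Tgfbr1* (-0.71 ± 0.33), with adjusted p from 0.716 to 0.762 (edgeR), against 2.75% of all genes. The tumour means of *Tgfbr1* did not share that direction, at 39.9 ± 9.06 CPM in WT/WT and 40.6 ± 38.5 CPM in Δ/Δ (SD, n = 4 each). Of 25 enzymes of chondroitin and dermatan sulfate synthesis, 9 were tested and 0 called (median -0.09), with *Chsy1*, *Dsel* and *Dse* first by p and none under an unadjusted 0.05. Of 6 enzymes of keratan sulfate synthesis only *B4galt1* was tested (-0.08 ± 0.20). Of 26 other proteoglycans, 11 were tested and 0 called (median 0.11), with *Gpc1* (-0.66 ± 0.23), the perivascular proteoglycan *Cspg4* (-1.33 ± 0.52) and the basement membrane proteoglycan *Hspg2* (0.40 ± 0.17) first by p, at adjusted p of 0.653 to 0.729 (edgeR).

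The 10 remaining genes of the family had at most 72 UMIs in CAF-like cells, and none passed the count filter. Those named here were chosen after their values were seen. *Tsku* had 72 UMIs there (18.6 CPM) and *Ecm2*, which lies beside *Aspn*, 25 (6.44 CPM); *Kera*, *Chad* and *Nyx* had none. *Chadl* was higher in the melanoma-like sum, with 1677 UMIs (6.52 CPM) against 5 UMIs (1.29 CPM) in CAF-like cells. *Optc*, the neighbour of *Prelp*, had 148 UMIs (0.575 CPM) in melanoma-like cells and 1 in CAF-like cells, too few for a comparison. Exons of *Chadl* overlap those of a gene on the opposite strand, *L3mbtl2*.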

How the data were processed

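The deposited values are UMI counts per gene and barcode, made by the authors with Cell Ranger 3.1.0 on GRCm38 per the submitters' notes, which also name Seurat 3.2.1. Barcodes with 200 to 5000 genes and under 7.5% mitochondrial counts were kept, integrated and clustered in Seurat 5.3.0 without the family's genes, and a cluster of 242 cells high in mitochondrial counts was removed. No doublet caller was run. Clusters were named from fixed marker lists. Counts were summed per tumour and class, filtered on low counts and tested with edgeR 4.0.16 (quasi-likelihood, Benjamini-Hochberg adjustment, threshold 0.05). DESeq2 1.42.0, an alternative, tested 15443 genes in CAF-like cells, all 8 members among them, against 4648 in edgeR. The test was checked on simulated counts. The labels call the tumours biological replicates. Replicate numbers did not pair the tumours. The members and gene lists were chosen with earlier results of these data known. Named genes were the 8 members, *Atf4*, the 3 genes most like each member, and in each list the genes called or otherwise the 3 with the smallest p. The largest subcluster alone was an alternative chosen after seeing the data.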

Additional observations from a re-analysis of the deposited data

Results flagged for a closer look

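Among the values of the members in CAF-like cells, a tumour stood far from the other 3 of its group for *Dcn* and for *Fmod*, by a rule that chance meets in about 1 in 20 groups. *Dcn* was at 1421 CPM in Δ/Δ tumour 3, which had 10 CAF-like cells, against 2359.8 to 2494 CPM in Δ/Δ tumours 1, 2 and 4. *Fmod* was at 38.3 CPM in Δ/Δ tumour 2, from 17 UMIs in 4 cells, against 0 to 1.39 CPM in the other Δ/Δ tumours.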

How the results depend on the processing

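The number of genes that edgeR called between genotypes in CAF-like cells was 100 with no filter on low counts, 15 without melanoma-marker cells, 6 in the largest subcluster alone, and 0 with the replicate block, with labelled sex as a covariate, with a mitochondrial limit of 15% and with a collagen gate, against 2 in the reported result; it was 0 to 2 with a tumour left out. Members called were 3 with no filter on low counts and 0 in every other setting run. The setting with labelled sex cannot adjust for sex, since transcripts went against the labels in every WT/WT library. With the replicate block the log2 fold changes were 0.81 for *Dcn* and -0.87 for *Aspn* (adjusted p = 0.426 for both, edgeR). Same-numbered tumours had correlations of -0.127 to 0.145, so the numbers were not taken as pairs. The log2 fold change of *Ogn* was -0.094 in the largest subcluster alone. Steps between neighbouring classes past the threshold were 0 to 8 with a tumour left out. The share of UMIs in CAF-like cells was 93.8% for *Dcn* and *Bgn* with the collagen gate, and 95.2% for *Bgn* at the 15% limit. The genotype difference in cells with a UMI was -0.0122 points for *Ogn* without WT/WT tumour 2, -0.130 without Δ/Δ tumour 4, and -0.501 for *Podn* when thinned to 1000 UMIs. With a tumour left out it ran from -0.130 to 5.71 points for *Ogn*. With a tumour left out, the log2 fold changes ran from 0.69 to 1.03 for *Dcn* and from -1.24 to -0.71 for *Aspn*. The causes were not tested. The 10 CAF-like cells of Δ/Δ tumour 3, and the 29 UMIs of *Fmod*, limit what depth can show.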
